A study of Rattus norvegicus with 12 samples.

Results

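The cell cycle arrest and senescence genes were 9 genes, Cdkn1a, Cdkn2a, Cdkn2b, Cdkn2c, Mdm2, Gadd45a, Gadd45b, Gdf15 and Lmnb1, out of 14217 genes represented on the array by a probe set with a single gene symbol. They were listed by name, with earlier results of these data known, and the rule used measured values only to pick the probe set of each gene. All 9 were measured, by 15 probe sets in all, and each gene was described at the probe set of highest mean over the 12 arrays. RNA came from the blood clot and early repair tissue (fracture hematoma) that fills a 1.5 mm gap cut into the left femur of Sprague-Dawley rats, taken at day 3 after the operation. The rats were 12 weeks (young) or 52 weeks (old) old, and the bone was held by an external fixator whose bar stood 7.5 mm (rigid) or 15 mm (semi-rigid) from the bone. The groups were young with semi-rigid fixation (YSR), young with rigid fixation (YR), old with semi-rigid fixation (OSR) and old with rigid fixation (OR), with 3 arrays each. Every array held the pooled RNA of 3 animals, so that the spread between arrays was the spread between pools. All groups carried the same osteotomy, and no animals without an operation were measured. The question of the study was whether age and fixation act on each other in the early hematoma, and the comparisons here ask whether genes of cell cycle arrest were higher or lower in old rats at each fixation.

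Cells stop dividing when inhibitors block the cyclin-dependent kinases (CDKs) that inactivate the retinoblastoma protein. After DNA damage the transcription factor p53 switches on Cdkn1a, whose product p21 inhibits several CDKs, and also Mdm2, whose product in turn marks p53 for destruction. The Cdkn2 genes encode the INK4 inhibitors of CDK4 and CDK6, and Cdkn2a, which encodes p16 and ARF, is known for its accumulation in ageing tissues. The Gadd45 genes encode small stress proteins that act on CDK1 and on stress kinases, Gdf15 encodes a secreted stress cytokine, and Lmnb1 encodes lamin B1 of the nuclear envelope, whose loss is a known feature of senescent cells. In a hematoma the same genes have other roles, since Cdkn1a is also induced during muscle differentiation and Lmnb1 is higher in dividing cells.

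The promoter sequences of Cdkn1a, Cdkn2c and Gadd45b are shown because these were the members with the smallest unadjusted p for age over all arrays. Each begins 250 bases before 1 annotated transcript start and ends 20 bases after it, on the strand of the gene, from the RefSeq annotation of the rat assembly GRCr8. Cdkn1a lies at chr20:7150820-7161373, Cdkn2c at chr5:129639736-129645564 and Gadd45b at chr7:9428689-9430991. The windows below are chr20:7150682-7150951 on the plus strand for Cdkn1a, chr5:129644872-129645141 on the minus strand for Cdkn2c and chr7:9430699-9430968 on the minus strand for Gadd45b. Capitals mark a match to the p53 half-site in Cdkn1a, to the E2F site GCGGGAA in Cdkn2c, and to the E-box CACGTG and, on both strands with overlap, to the TATA box TATAA in Gadd45b. Other matches, among them a p53 half-site in Cdkn2c and a TATA box in Cdkn1a, were left in lower case.
Cdkn1a: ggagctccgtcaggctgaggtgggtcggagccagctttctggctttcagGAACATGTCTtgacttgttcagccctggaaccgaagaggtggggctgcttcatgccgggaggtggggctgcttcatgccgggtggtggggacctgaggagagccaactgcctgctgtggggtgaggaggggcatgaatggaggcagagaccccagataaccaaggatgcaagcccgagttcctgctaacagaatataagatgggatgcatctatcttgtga
Cdkn2c: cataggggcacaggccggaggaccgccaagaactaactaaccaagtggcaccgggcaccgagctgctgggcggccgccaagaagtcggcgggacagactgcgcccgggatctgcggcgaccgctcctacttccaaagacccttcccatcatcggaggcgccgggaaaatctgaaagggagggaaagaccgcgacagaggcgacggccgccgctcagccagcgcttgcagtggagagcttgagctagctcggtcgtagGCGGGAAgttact
Gadd45b: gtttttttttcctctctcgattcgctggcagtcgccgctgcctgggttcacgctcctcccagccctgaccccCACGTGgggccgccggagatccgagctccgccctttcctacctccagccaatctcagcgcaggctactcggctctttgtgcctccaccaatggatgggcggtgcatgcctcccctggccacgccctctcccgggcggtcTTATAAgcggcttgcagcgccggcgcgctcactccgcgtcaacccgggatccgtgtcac

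Motifs were searched on both strands in windows running to 50 bases after the start, and a match is only a run of letters. A gene with several windows, such as Gdf15, counted when any of them matched. The shares are of single windows, so that the member counts are not directly comparable with them. A p53 half-site was found in the windows of 3 of the 9 genes, Cdkn1a, Cdkn2c and Gadd45a, and in 8.0% of all 33469 windows. The E2F site was found for 2 members, Cdkn2c and Gdf15, against 4.2% of all windows, and the E-box for Gadd45b and Lmnb1 against 6.4%. The GC box GGGCGG was present for 8 members, with Cdkn1a as the exception, and in 33.1% of all windows. The CCAAT box CCAAT was present for 5 members, TATAA for 3 and the cyclic AMP response element TGACGTCA for Cdkn2b alone, against 37.5%, 26.2% and 1.8% of all windows.

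Across the series, each array was scaled to the same trimmed mean of 500.2, and the median signal lay between 126.9 and 167.5. Degraded RNA raises the 3' over the 5' signal of the Gapdh controls. This log2 ratio (Gapdh ratio) reached 6.69 for YSR array 1 and 2.95 for OR array 1, with 0.33 to 1.59 elsewhere. Within that range the YR arrays had 1.02, 1.59 and 1.38, and the remaining arrays 0.33 to 0.49. RNA quality thus went with the YR group, and its part in the differences between OR and YR was not tested. Leaving out the 2 arrays of highest Gapdh ratio, as done below, keeps all YR arrays. All measured markers of monocytes and macrophages (11 of 11), erythroid cells (5 of 5) and fibroblasts (8 of 8) lay at or above the median of the probe set means, which fits the labelled tissue. Skeletal muscle markers were also high, and their mean level relative to the array mean spanned 3.46 to 5.17 (YSR), 4.01 to 4.42 (YR), 0.07 to 5.58 (OSR) and 0.12 to 4.47 (OR), a measure called the muscle marker level below. OSR array 1 and OR array 2 had the low values of 0.07 and 0.12. Fewer cells of a type and less RNA per cell cannot be told apart in such bulk samples.

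None of the 9 genes passed the test for age at either fixation. In limma, with p-values adjusted over 31042 probe sets (Benjamini-Hochberg), 0 members were called for OSR against YSR, where 0.00322% of all probe sets were called, and 0 for OR against YR, where the share was also 0.00322%. With both fixations averaged, 0 members were called against 0.00644% of all probe sets. The smallest adjusted p of a member was 0.959 at semi-rigid fixation, 0.318 at rigid fixation and 0.215 for the average, the latter 2 for Gadd45b. At an unadjusted p under 0.05, 1 member was higher and 1 lower in OSR than in YSR (4.36% of all probe sets), 1 higher and 2 lower in OR than in YR (8.34%), and 1 higher and 2 lower for the average (8.59%). The median log2 difference of old minus young over the 9 genes was -0.09 at semi-rigid fixation and 0.05 at rigid fixation, beside 0.00 and 0.04 over all probe sets, and 0.15 for the average beside 0.02. Of the 9 genes, 4 were higher and 5 lower in OSR than in YSR.

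In single arrays, the old and young values of 2 members did not overlap at semi-rigid fixation, Cdkn2a (lower in OSR) and Gadd45a (higher in OSR), where 8.98% of all probe sets did not overlap. At rigid fixation 3 members did not overlap, Cdkn1a and Gadd45b (lower in OR) and Cdkn2c (higher in OR), where the share of all probe sets was 13.8%. Over all 12 arrays 0 members separated the ages, against 0.399% of probe sets. An exact two-sided permutation of the age labels within each fixation, of 400 arrangements and a smallest possible p of 0.005, gave the unadjusted p of the average for each of the 9 genes named below.

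**Figure D1:**
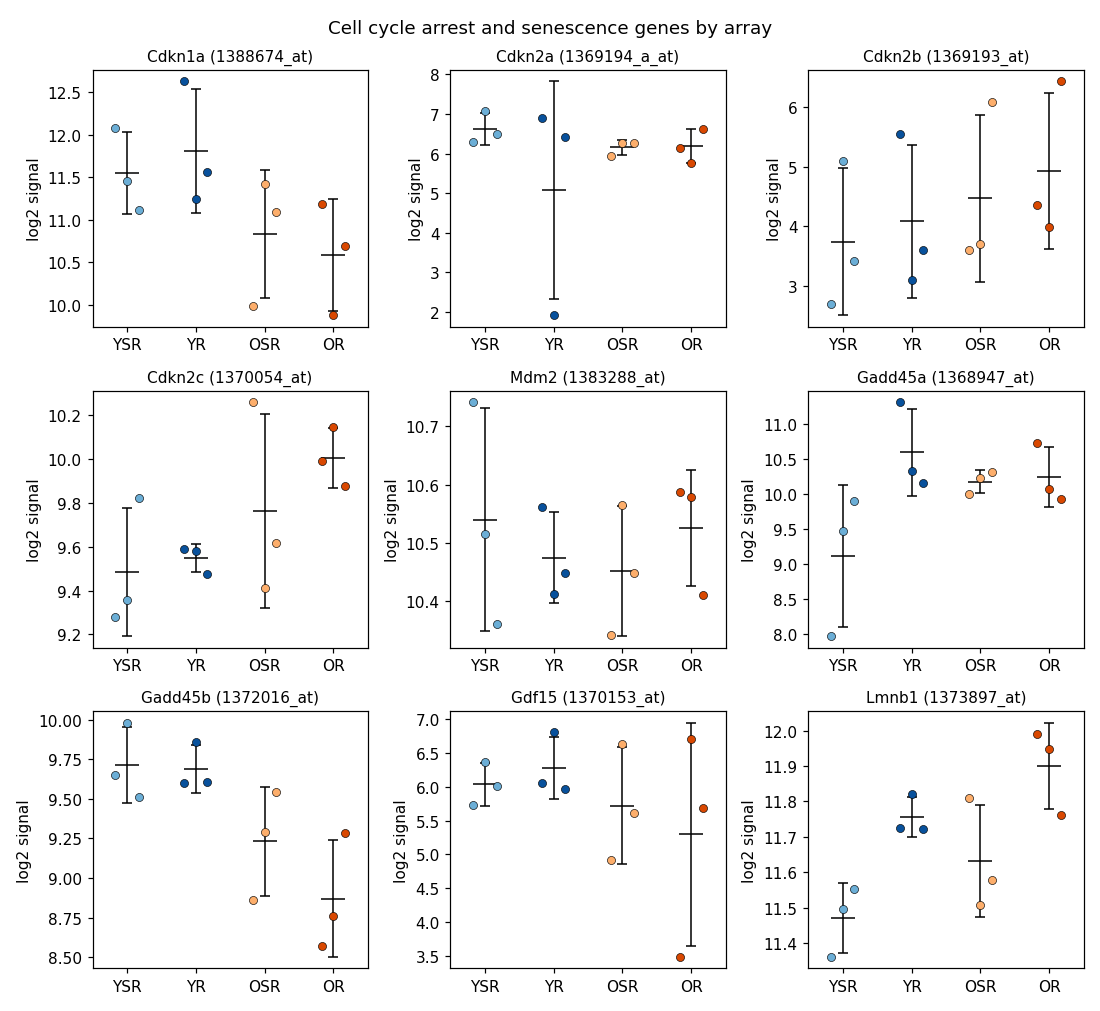
Log2 signal (vertical axis) of each of the 9 genes in the 3 arrays of YSR, YR, OSR and OR (horizontal axis). Points are arrays and bars show the group mean and SD. For Cdkn1a and Gadd45b all 3 OR arrays lie below all 3 YR arrays, and Cdkn2a has 1 YR array far below the rest at 1.93.

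Cdkn1a, the p53 target that encodes p21, was among the brighter genes, with more signal than 93.8% of probe sets. Its log2 signals were 12.07, 11.46 and 11.12 in YSR and 12.62, 11.24 and 11.56 in YR. In the old groups they were 9.99, 11.43 and 11.09 in OSR and 11.18, 9.88 and 10.70 in OR. All OR arrays were below all YR arrays, while the 2 semi-rigid groups overlapped and OSR array 1 stood well below the other OSR arrays. The mean was 11.55 ± 0.48 (SD, n = 3) in YSR and 10.84 ± 0.75 in OSR, a difference of -0.72 (SE 0.44, limma adjusted p = 0.959). In YR it was 11.81 ± 0.72 and in OR 10.59 ± 0.66, a difference of -1.22 or 2.33-fold (SE 0.44, limma adjusted p = 0.480). Averaged over fixation, Cdkn1a was 1.96-fold lower in old rats on the log2 difference of -0.97 (SE 0.31, limma adjusted p = 0.373, exact permutation p = 0.015). A dimmer probe set of Cdkn1a gave -0.71 (SE 0.44, limma adjusted p = 0.681).

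At the brighter probe set, the arrays of lowest Cdkn1a were those of lowest muscle marker level. OSR array 1 and OR array 2, with the 2 lowest Cdkn1a signals, had muscle marker levels of 0.07 and 0.12, and OR array 3, with the next lowest Cdkn1a signal, had a level of 1.97. The dimmer probe set followed muscle markers less closely (Pearson r = 0.50 against 0.84 over 12 arrays) and endothelial markers more closely (-0.84 against -0.73). Adipocyte markers went with the brighter probe set at -0.84. The part of muscle in the difference of Cdkn1a was not tested. All 9 muscle markers were measured, 8 of them brighter than the median probe set. Creatine kinase (Ckm) was at 7.66 and 4.72 in the pair of low arrays against 8.42 to 13.33 in the others, and Myh2 was near the floor at 1.2 in OSR array 1, while Myh1 lay between 12.45 and 14.01 in all 12 arrays. With these 2 arrays left out, a choice made after looking at the data, the difference of Cdkn1a was -0.29 at semi-rigid fixation, -0.87 at rigid fixation and -0.58 for the average (limma adjusted p = 0.976). Both are old arrays with the lowest Cdkn1a signals, so that leaving them out had to shrink the difference and does not test muscle content.

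**Figure D2:**
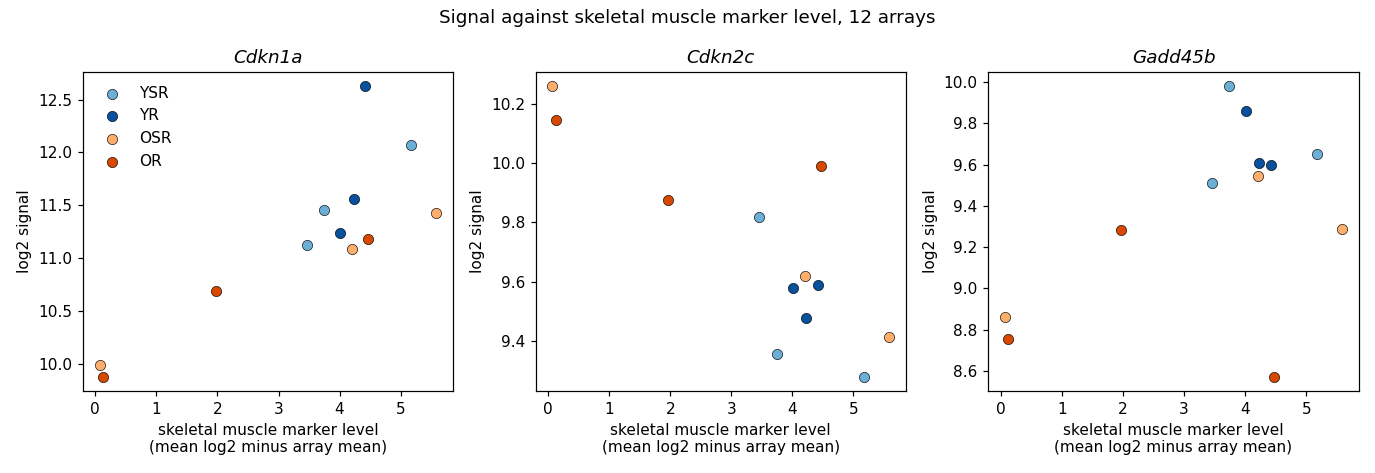
Log2 signal of Cdkn1a, Cdkn2c and Gadd45b (vertical axes) against the mean log2 level of 9 skeletal muscle markers minus the array mean (horizontal axes), 1 point per array coloured by group. The 2 arrays with muscle levels of 0.07 and 0.12 have the lowest Cdkn1a and the highest Cdkn2c signals.

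Mdm2, the ubiquitin ligase that restrains p53 and is itself a p53 target, was nearly flat. Its signals lay between 10.34 and 10.74 in all 12 arrays, and young and old overlapped at both fixations. The differences were -0.09 at semi-rigid and 0.05 at rigid fixation, and the average was -0.02 (SE 0.09, exact permutation p = 0.8). The next brightest probe set of Mdm2 gave an average of -0.05 and the dimmest 0.36. The dimmest was low in YSR array 1, at 5.72 against 7.75 to 9.03 in the other 11 arrays, and that array was the one with the Gapdh ratio of 6.69.

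Cdkn2a, the gene of p16 and ARF, was dim, and its mean over the arrays was below the median of probe sets. It read 6.29, 7.06 and 6.49 in YSR and 5.94, 6.26 and 6.26 in OSR, so that every OSR array was below every YSR array by a small margin. The difference of -0.46 had an adjusted p of 0.959 or more in limma, as did all members at this fixation. In the rigid groups the signals were 6.89, 1.93 and 6.41 in YR and 6.15, 5.77 and 6.63 in OR. YR array 2 alone set the direction there, since the difference of 1.10 became -0.47 without it. Over both fixations the value was 0.32 (limma adjusted p = 0.920, exact permutation p = 0.985) and -0.47 without YR array 2.

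Cdkn2b, which encodes the INK4 inhibitor p15 and neighbours Cdkn2a on chromosome 5, was the dimmest member, with a mean of 4.31. Its signals ranged from 2.70 to 5.10 in YSR and from 3.61 to 6.10 in OSR, and from 3.10 to 5.55 in YR and from 3.99 to 6.43 in OR. The groups overlapped throughout. The average difference of 0.79 (limma adjusted p = 0.791, exact permutation p = 0.295) was no larger than the spread between arrays, and it ranged from 0.38 to 1.15 when single arrays were left out.

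Cdkn2c, which encodes the INK4 inhibitor p18, was the only Cdkn2 gene above the median of probe sets. It read 9.28, 9.36 and 9.82 in YSR and 10.26, 9.41 and 9.62 in OSR, which overlapped. In YR it read 9.59, 9.58 and 9.48, and all OR arrays were higher, at 9.99, 10.14 and 9.88. The difference was 0.28 at semi-rigid fixation and 0.46 at rigid fixation (SE 0.21, limma adjusted p = 0.595). The average of 0.37 had a limma adjusted p of 0.508 and an exact permutation p of 0.045. A dim second probe set (mean 5.97), whose identifier marks possible matches to other transcripts, gave the opposite average of -0.81 (SE 0.54, limma adjusted p = 0.709). The highest signals of the brighter probe set, 10.26 in OSR array 1 and 10.14 in OR array 2, were in the arrays of lowest muscle marker level. The dim probe set read 4.21 and 5.43 there, and went with the muscle marker level in the opposite direction (Pearson r = 0.78 against -0.82). Without these 2 arrays the average of the brighter probe set was 0.21 (limma adjusted p = 0.976). As both are old arrays, leaving them out had to lower the difference and does not test muscle content.

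**Figure D3:**
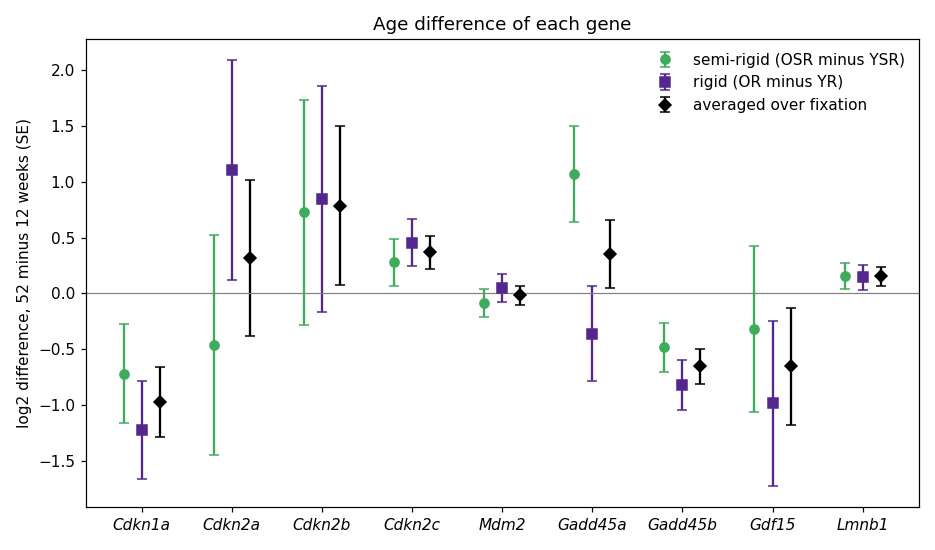
Log2 difference of 52 minus 12 weeks (vertical axis) for each gene at semi-rigid fixation, at rigid fixation and averaged, with bars of 1 SE from limma. Cdkn1a and Gadd45b are below 0 and Cdkn2c above 0 at both fixations, and Gadd45a lies on opposite sides of 0, at 1.07 and -0.36.

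Gadd45b, the stress-inducible gene whose product acts on the p38 and JNK kinase pathways, had the smallest limma p of the members at rigid fixation and for the average. Its signals were 9.65, 9.98 and 9.51 in YSR and 8.86, 9.29 and 9.55 in OSR. In the rigid groups they were 9.60, 9.86 and 9.61 in YR and 8.57, 8.76 and 9.28 in OR. Of the old arrays, OSR array 3 was the exception that reached into the young range, just above YSR array 3. The difference was -0.48 at semi-rigid fixation (SE 0.22, limma unadjusted p = 0.0486, adjusted p = 0.959). At rigid fixation it was -0.82 or 1.76-fold (SE 0.22, limma unadjusted p = 0.00276, adjusted p = 0.318). Averaged over fixation it was -0.65 or 1.57-fold (SE 0.16, limma adjusted p = 0.215, exact permutation p = 0.01). Without the 2 arrays of lowest muscle marker level the average was -0.53 (limma adjusted p = 0.843). Both are old arrays with Gadd45b below their group mean, so that leaving them out had to shrink the difference and does not test muscle content.

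Marker levels of other cell types, as the mean log2 signal of each list minus the array mean, also differed between the groups. Macrophage markers (11 of 13 measured) were at 3.02, 2.89 and 3.85 in OR against 3.53 to 3.82 in YR, so that 2 of the 3 OR arrays were lower and array 3 was not, and at 3.55 to 3.96 in OSR against 3.79 to 3.92 in YSR. Endothelial markers (6 of 7) were at 2.77 to 3.69 in OR against 1.99 to 2.43 in YR, with every OR array higher, and at 1.96 to 3.16 in OSR against 1.87 to 2.43 in YSR. Their median difference for age averaged over fixation was 0.62, and 6 of 6 were higher in old rats. Adipocyte markers (5 of 5, of which 2 were at or above the median probe set) were at 0.50 to 1.34 in OR against -1.56 to -0.43 in YR and at -0.42 to 0.77 in OSR against -1.01 to -0.36 in YSR, with a median difference of 2.36. Osteoclast markers (4 of 7) were at 2.59 to 3.00 in OR against 1.14 to 1.66 in YR and at 1.50 to 2.23 in OSR against 1.24 to 1.87 in YSR, with a median of 0.67. Neutrophil markers (6 of 9) were at 2.68 to 4.90 in OR against 1.61 to 3.92 in YR and at 2.29 to 4.20 in OSR against 1.82 to 2.73 in YSR, with a median of 1.56. For the average, adipocyte markers split into 3 higher and 2 lower, osteoclast markers into 3 and 1, and neutrophil markers into 4 and 2. Macrophage markers split into 4 higher and 7 lower, with a median of -0.36. Platelet markers (4 of 5) and erythroid markers (5 of 7) were all higher for the average, with medians of 1.07 and 0.61. T and NK cell markers were higher for 9 of 10 (median 0.60) and B and plasma cell markers for 4 of 4 (median 0.43). Of these, 5 and 1 lay at or above the median probe set. Fibroblast markers split into 6 higher and 2 lower, with a median of 0.22. Of the macrophage, endothelial, adipocyte, osteoclast and neutrophil markers the lowest single value was that of the adipocyte gene Lep, 0.77 in OSR array 3. The part of these cell types in the differences of Cdkn1a, Cdkn2c and Gadd45b was not tested.

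Gadd45a, the p53 target of the same family, had opposite age differences at the 2 fixations. It read 7.97, 9.47 and 9.90 in YSR and 10.001, 10.23 and 10.31 in OSR, with every OSR array higher. In YR it read 11.32, 10.33 and 10.16 and in OR 10.73, 10.07 and 9.93, which overlapped. The difference of 1.07 at semi-rigid fixation (SE 0.43, limma adjusted p = 0.959) and of -0.36 at rigid fixation differed from each other by -1.43 (SE 0.61), and this interaction had an unadjusted p of 0.0357 and a limma adjusted p of 0.990. The lowest value, 7.97, was in YSR array 1, which had the Gapdh ratio of 6.69. Without the 2 arrays of highest Gapdh ratio the semi-rigid difference was 0.50, the rigid one -0.60 and the average turned from 0.36 to -0.05.

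Gdf15, the secreted stress cytokine of the TGF-beta family, was dim, with a mean of 5.83. At semi-rigid fixation it read 5.73, 6.36 and 6.02 in YSR and 4.91, 6.63 and 5.61 in OSR. At rigid fixation it read 6.06, 6.81 and 5.96 in YR and 3.49, 6.71 and 5.69 in OR. The old groups overlapped the young ones at both fixations, and the lowest value was in OR array 1, which had the Gapdh ratio of 2.95. The average difference was -0.65 (limma adjusted p = 0.763, exact permutation p = 0.27). Without OR array 1 it was -0.20, and the rigid difference went from -0.98 to -0.08. Without OR array 2 they were -1.0 and -1.69.

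Lmnb1, the gene of lamin B1, did not have lower signals in old rats. It was bright and narrow in spread, with 11.36, 11.50 and 11.55 in YSR and 11.81, 11.51 and 11.58 in OSR. The rigid groups read 11.73, 11.82 and 11.72 in YR and 11.99, 11.95 and 11.76 in OR. The groups of different age overlapped at both fixations. The difference of old minus young was 0.16 at semi-rigid and 0.14 at rigid fixation, and the average was 0.15 (SE 0.08, limma adjusted p = 0.634). Its exact permutation p was 0.045, and 0.19 without the 2 arrays of highest Gapdh ratio, where fewer arrangements were possible. The second brightest probe set averaged 0.06. The dimmest was at 1.14 to 2.23 in YSR array 1, YR arrays 2 and 3 and OR array 1, which had the 4 highest Gapdh ratios, and at 4.25 to 5.91 in the other 8 arrays.

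**Figure D4:**
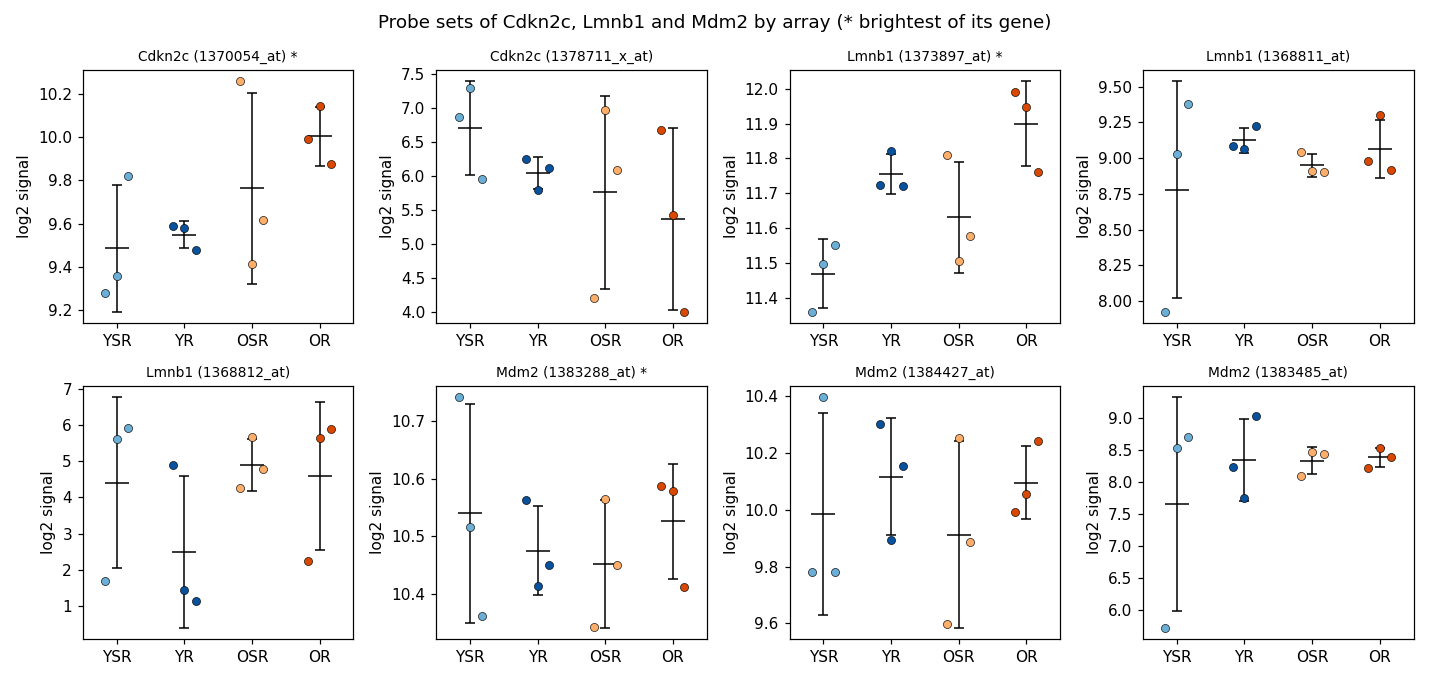
Log2 signal (vertical axis) of each probe set of Cdkn2c, Lmnb1 and Mdm2 in the 3 arrays of each group (horizontal axis), with group means and SD bars and an asterisk at the brightest probe set of a gene. The Cdkn2c probe sets have opposite age differences, averaging 0.37 and -0.81, and the dimmest Lmnb1 probe set drops to between 1.14 and 2.23 in 4 arrays.

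For the interaction of age and fixation 0 members were called, as were 0% of all probe sets, and Gadd45a was the single member at an unadjusted p under 0.05 (3.8% of all probe sets). The median over the members was -0.02 beside 0.03 over all probe sets. The interaction was -0.51 for Cdkn1a and -0.34 for Gadd45b, with limma adjusted p-values of 0.990 for both. Between rigid and semi-rigid fixation 0 members and 0% of all probe sets were called. Lmnb1 was higher by 0.28 or 1.21-fold in the rigid groups (SE 0.08, unadjusted p = 0.00526, limma adjusted p = 0.845) and Gadd45a by 0.78 (SE 0.30, unadjusted p = 0.0241), 2 of 9 members against 5.73% of all probe sets. Without the 2 arrays of highest Gapdh ratio these were 0.23 and 0.37.

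The genes most like Cdkn1a over the 12 arrays, among 12367 probe sets of 1 symbol at or above the median signal, were Cox6b1 (Pearson r = 0.96), a subunit of the respiratory chain, Fndc5 (0.96), the gene of the muscle hormone irisin, and Ppp1r14b (0.95), a phosphatase inhibitor. Without the 2 arrays of highest Gapdh ratio these were 0.97, 0.98 and 0.95. Fndc5 was at 7.29 and 6.84 in the pair of arrays of lowest muscle marker level and at 7.89 to 9.74 in the others. Lmnb1 was most like the histone gene H2az1 (0.91), the topoisomerase gene Top1 (0.90) and the deubiquitinase gene Usp46 (0.90), and these were 0.85, 0.86 and 0.84 without the same arrays. The genes nearest to Cdkn2a were Adat3 (0.93), Wdr18 (0.91) and Apbb2 (0.90), which were all lowest in YR array 2, at 5.36, 8.14 and 6.32. Those nearest to Gdf15 were Rfx3 (0.91), Klhl20 (0.90) and Gga1 (0.87), all lowest in OR array 1, and their r was 0.80, 0.72 and 0.78 without the arrays of high Gapdh ratio. These coefficients were picked as the highest of many and describe the 12 arrays, which share a tissue and 4 groups.

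In the wider pathways 0 genes of any list passed the adjusted test for age. Of the 20 measured genes of the CDK inhibitor and retinoblastoma pathway, 13 were higher and 7 lower in old rats for the average, with a median difference of 0.13, beside 0.02 over all probe sets. An unadjusted p under 0.05 was reached by 1 in each direction, a share close to the 8.59% of all probe sets. These were E2f2, a transcription factor of S phase entry, at 0.79 (SE 0.33), and Rbl2, the p130 pocket protein, at -0.31 (SE 0.13). Cyclin genes Ccnd1 and Ccne1 differed by -0.30 and 0.48. Of 19 p53 pathway genes 9 were higher and 10 lower, with a median of 0.00, and Sesn1, a p53-induced regulator of growth signalling, was the single one at an unadjusted p under 0.05, at -0.43 (SE 0.17). Ppm1d, Apaf1 and Ccng1 followed with 0.33, 0.23 and -0.27.

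Of 14 genes of the DNA damage checkpoint 11 were higher and 3 lower, with a median of 0.20. Parp1, which senses DNA breaks, was at -0.30 (SE 0.08, limma adjusted p = 0.312), and Mdc1, which gathers repair factors at breaks, was at 0.45 (SE 0.19, adjusted p = 0.530). The checkpoint kinase gene Atr was at 0.41. The nuclease gene Mre11 was at 1.61 (SE 0.54) at semi-rigid and -0.38 (SE 0.54) at rigid fixation, and its interaction of -1.99 (SE 0.76) had a limma adjusted p of 0.990. Its mean was 5.58 ± 1.2 (SD) in YSR, against 7.07 ± 0.31 in YR, 7.19 ± 0.17 in OSR and 6.69 ± 0.63 in OR. YSR holds the array with the Gapdh ratio of 6.69, whose part in the low and scattered YSR values was not tested. The 19 genes of GADD45 partners and the integrated stress response split into 9 higher and 10 lower. Among them Ppp1r15a (GADD34) was at 0.46 (SE 0.19) and Atf3 at -0.39 (SE 0.18), both with an unadjusted p under 0.05, while Fgf21 was at 1.29 (SE 0.62) and Slc7a11 at -0.35. Of 12 lamina and chromatin genes 6 were higher and 6 lower. Hmga1, a chromatin protein of dividing and of senescent cells, was lower in old rats, at -0.58 (SE 0.14, limma adjusted p = 0.215), and Sun1, Lbr and Hmgb1 were at -0.17, 0.42 and 0.12.

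Of 13 Polycomb and other regulators of Cdkn2a 8 were higher and 5 lower. Id1 and Ets1, which act against and for the transcription of Cdkn2a, were at 0.57 (SE 0.13, limma adjusted p = 0.207) and 0.48 (SE 0.15, adjusted p = 0.364), and Ezh2 and Kdm6b, which add and remove a repressive histone mark, at 0.29 and 0.59. Among 34 genes of senescence-associated secreted factors 19 were higher and 15 lower, with a median of 0.06. An unadjusted p under 0.05 was reached by 5 of the higher and 6 of the lower genes, where the share of all probe sets in this comparison was 8.59%. Angptl4, a regulator of lipoprotein lipase, was at 0.65 (SE 0.09, limma adjusted p = 0.0905), with group means of 11.80 in YSR and 12.32 in OSR, and of 11.16 in YR and 11.94 in OR. The monocyte chemokine genes Ccl2 and Ccl7 were lower in old rats, at -0.59 (SE 0.14, adjusted p = 0.213) and -0.87 (SE 0.19, adjusted p = 0.207), and the binding protein gene Igfbp6 at -0.89 (SE 0.21, adjusted p = 0.215).

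Cell proliferation genes were higher in old rats in most cases but by little. Of 26 measured genes 24 were higher and 2 lower for the average, with a median of 0.18 and 0 at an unadjusted p under 0.05 in limma. At rigid fixation 25 were higher and 1 lower, with a median of 0.28 beside 0.04 over all probe sets and 4 at an unadjusted p under 0.05 beside 8.34% of all probe sets, and at semi-rigid fixation 21 were higher and 5 lower, with a median of 0.07. The mitotic kinase gene Cdk1 was at 0.16 for the average (-0.02 at semi-rigid and 0.34 at rigid fixation), the mitotic motor and spindle genes Kif11 and Nusap1 at 0.27 and 0.24, and the replication gene Mcm3 at 0.27. The mean level of the list overlapped between the ages at both fixations. It was at 3.19 to 3.61 in OR against 2.96 to 3.39 in YR, and at 2.88 to 3.54 in OSR against 2.89 to 3.42 in YSR. This level was highest in OR array 2 and OSR array 1, at 3.61 and 3.54 against 2.88 to 3.42 in the other 10 arrays. These 2 arrays had the lowest muscle marker level and, at the brighter probe set of each gene, the lowest Cdkn1a and the highest Cdkn2c. How much of the proliferation differences goes with muscle content was not tested.

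**Figure D5:**
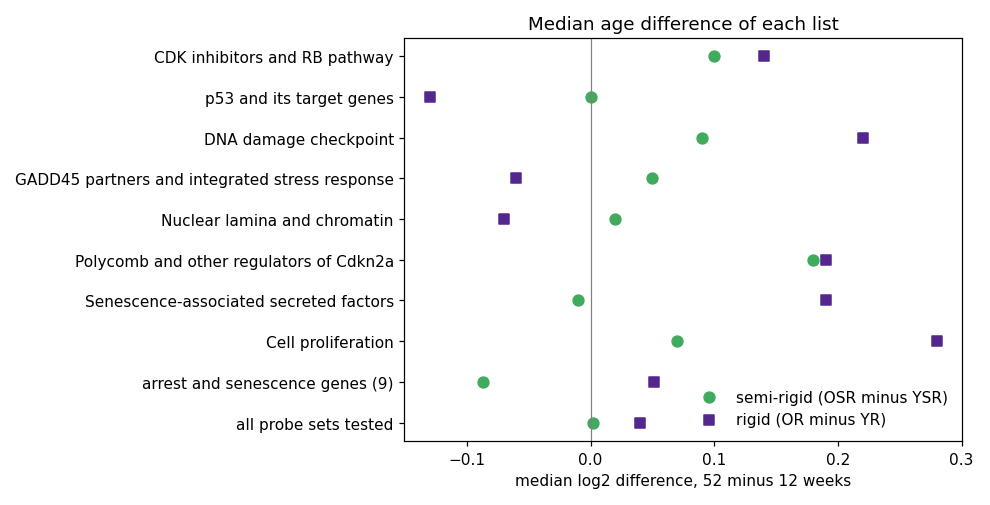
Median log2 difference of 52 minus 12 weeks (horizontal axis) of each of 8 pathway lists (vertical axis), of the 9 arrest and senescence genes and of all probe sets tested, at semi-rigid (circles) and rigid (squares) fixation. The largest shift among these pathway lists, which leave out the cell type markers, is that of cell proliferation at rigid fixation, 0.28, while the 9 genes lie at -0.09 and 0.05.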

How the data were processed

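Hematoma RNA of 4 groups, 3 pools of 3 animals each, was hybridised to 1-colour Affymetrix rat arrays. The authors deposited a linear signal intensity per probe set (31099 in all), scaled so that every array has the same trimmed mean, and their processing notes name GCOS 1.2. PLIER values, quantitative PCR and migration assays of the study were not analysed here. A floor of 1 was set before log2 and touched no value of the 9 genes. After removal of 57 controls, 31042 probe sets were tested. The platform annotation gave 1 symbol to 20832 probe sets, several to 436 and none to 9831, and 20758 of the first were found in the rat gene list. The number of arrays limits the precision.

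All arrays entered 1 limma 3.58.1 fit (R 4.3.3) with a coefficient per group and eBayes with trend. Its contrasts were age at either fixation, age averaged over fixation, fixation, and the interaction (OR minus YR, less OSR minus YSR). The threshold was a Benjamini-Hochberg adjusted p of 0.05. Exact permutation of age within fixation used Python 3.11.15, numpy 2.4.6, scipy 1.17.1 and pandas 2.3.3, and plots used matplotlib 3.10.9. Both tests were checked on simulated data. Named were all 9 genes, the 4 genes of smallest unadjusted p for age in each of 8 pathway lists, and the 3 genes of highest Pearson r with Cdkn1a, Cdkn2a, Gdf15 and Lmnb1, beside 11 cell type marker lists. The members and lists were chosen with earlier results of these data known. Alternatives were quantile normalization, a pseudocount of 16, no dim probe sets, no trend, the methods' ANOVA without moderation, only the arrays compared, a replicate block, the mean of all probe sets, and leaving out each array or 2 arrays by Gapdh ratio or muscle marker level.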

Additional observations from a re-analysis of the deposited data

How the results depend on the processing

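The 9 genes had 0 calls at an adjusted p under 0.05 under each of the 22 alternatives that tested them, where leaving out dim probe sets did not test Cdkn2a, Cdkn2b and Gdf15, and the smallest adjusted p, 0.0971, was that of Gadd45b for age without OSR array 3, a setting in which 80 of all probe sets were called for age. Cdkn1a and Gadd45b kept their direction for age averaged over fixation in all 21 alternatives that give it, with -1.12 to -0.58 and -0.75 to -0.53. Of these, the fits without trend, without moderation, without dim probe sets and with the replicate block cannot change the difference, only its p. With the mean of all probe sets of a gene, Cdkn2c turned to -0.33 (semi-rigid), -0.11 (rigid) and -0.22 (average), Mdm2 to 0.18 (semi-rigid) and 0.10 (average) and Lmnb1, for fixation, to -0.20, and the medians over the genes were -0.32, -0.11, -0.15 (interaction) and -0.18 (fixation). Without dim probe sets, which leaves 6 of the genes, the median was -0.15 at rigid fixation and -0.18 for the interaction. Without the 2 arrays of highest Gapdh ratio the average was 0.017 for Mdm2 (exact permutation p = 0.79), which was also the median, and -0.053 for Gadd45a (exact permutation p = 0.9), Mdm2 was 0.014 at semi-rigid fixation, and the exact permutation p rose to 0.07 for Cdkn1a, 0.14 for Cdkn2c and 0.19 for Lmnb1. With these 2 arrays left out the permutation had fewer arrangements than the 400 of all arrays, so that its p-values are not directly comparable with the main ones. Quantile normalization gave 0.002 for Mdm2 (exact permutation p = 0.975) and an exact permutation p of 0.05 for Cdkn2c. Without the 2 arrays of lowest muscle marker level Gdf15 was 0.085 at semi-rigid fixation. The cause of these changes was not tested.

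When each array was left out in turn, the median over the 9 genes ranged from -0.47 to 0.10 at rigid fixation, from -0.034 to 0.187 for the average, from -0.54 to 0.11 for the interaction and from -0.04 to 0.16 for fixation. Cdkn2a ranged from -0.47 to 2.01 at rigid fixation and from -0.47 to 0.77 for the average, where YR array 2 turned the sign. At semi-rigid fixation Cdkn2b ranged from -0.087 to 1.41 (turned by OSR array 3), Gdf15 from -0.776 to 0.085 (OSR array 1) and Mdm2 from -0.176 to 0.014 (YSR array 1), and Mdm2 ranged from -0.063 to 0.032 for the average.

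Arrays of 1 replicate number did not deviate together, with a median r of 0.02 over 18 pairs and the same value over the 36 pairs of unequal number. A fit with replicate number as a block gave -0.97 (limma adjusted p = 0.460) and -0.65 (limma adjusted p = 0.294) for age averaged over fixation in Cdkn1a and Gadd45b. These are the differences of the main fit, which a block cannot change in this balanced design. The block fit called 0 of the 9 genes. Cdkn2a, Cdkn2b and Gdf15 lay below the median probe set, and no detection calls were used.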
